A study of Mus musculus with 8 samples.

Results

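The genes described here are 10 coagulation genes of the liver: the clotting factor genes F2, F5, F7, F9, F10, F11 and F12 and the 3 fibrinogen chain genes Fga, Fgb and Fgg. They were chosen by symbol, as the non-control probes whose gene name in the array files was 1 of these 10 names. The rule found 11 probes of 41174 on the array, 2 of them for F9, and 10 genes of the 15341 genes tested. On 8 of 8 arrays the scanner software marked all 11 probes as well above background and 0 of them as saturated.

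The arrays measured liver RNA of C57Bl/6 mice of 2 genotypes, AIM+/+ (wild type) and AIM-/- (knockout). AIM is a protein secreted by macrophages and is encoded by Cd5l. Mice of each genotype were kept on a high-fat diet (HFD) for 6, 12 or 20 weeks, and those at 0 weeks had normal chow. Each of the 8 groups, wild type or knockout at 0, 6, 12 or 20 weeks, had 1 one-colour array. The ages and sexes of the mice, the number of animals behind an array and the cells in which the knockout acts are not given in the sources used here. The 4 weeks therefore stood in for replicates of a genotype and the 2 genotypes for replicates of a week, and p-values measure only the spread among these 8 arrays. Chow was used only at 0 weeks, so diet and age cannot be told apart. The 4 wild-type arrays were on 1 slide and the 4 knockout arrays on the other, so genotype and slide cannot be told apart, and each week had the same position on both slides.

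The liver parenchyma makes nearly all circulating clotting factors. Prothrombin (F2) and factors VII, IX and X (F7, F9, F10) are vitamin K-dependent zymogens, which need gamma-carboxylation to bind membranes, and factor V (F5) is the cofactor with which activated factor X cuts prothrombin. Factor XII (F12) starts the contact pathway and factor XI (F11) links it to factor IX. Thrombin cuts fibrinogen, a protein of alpha, beta and gamma chains from the neighbouring genes Fga, Fgb and Fgg, into fibrin. Fibrinogen is known as an acute phase protein whose genes respond to interleukin 6 in hepatocytes, and factor VII has the shortest plasma half-life of these factors.

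Between 18586 and 21119 probes per array were well above background. The Cd5l signal was 10500 to 30200 on the 4 wild-type arrays and 90.7 to 171 on the 4 knockout arrays, which bears out the genotype labels. Of the hepatocyte markers looked for, 16 of 18 were measured, and their summed scaled signal lay between 8229 and 11080 times the 75th percentile signal of the array. Both 20-week arrays differed from the other 6 in sex-linked genes. Xist had a signal of 903 and 892 there and of 5.15 to 165 elsewhere, whereas signal well above background from Ddx3y, Eif2s3y and Kdm5d, which are on the Y chromosome, was absent at 20 weeks and present on the other 6 arrays. The second highest Xist value, 165, was that of the knockout at 6 weeks. This sex-linked difference and week 20 cannot be told apart. It enters each comparison of 20 weeks with other weeks, and HFD minus chow as well. Whether it touches the 20-week values of the coagulation genes was not tested.

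The 250 bases before the RefSeq transcript start (GRCm38.p6) are printed for the genes on which the results turn. These are the 3 fibrinogen genes, which lie side by side, and F7 and F11, which had the widest ranges. Capitals mark matches to any of 4 motifs searched on both strands: CTGGGAA (the core of the interleukin 6 response element), GTTAAT (an HNF1 half-site), CAAAGTNCA (HNF4) and TTGCNNAA (C/EBP).
Fga (chr3:83025903-83026152, plus strand): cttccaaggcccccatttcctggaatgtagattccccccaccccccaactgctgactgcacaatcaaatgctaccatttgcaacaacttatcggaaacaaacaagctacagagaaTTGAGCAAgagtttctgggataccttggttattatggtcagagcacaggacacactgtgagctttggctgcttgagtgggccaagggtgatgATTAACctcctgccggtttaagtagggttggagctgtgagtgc
Fgb (chr3:83049864-83050113, minus strand): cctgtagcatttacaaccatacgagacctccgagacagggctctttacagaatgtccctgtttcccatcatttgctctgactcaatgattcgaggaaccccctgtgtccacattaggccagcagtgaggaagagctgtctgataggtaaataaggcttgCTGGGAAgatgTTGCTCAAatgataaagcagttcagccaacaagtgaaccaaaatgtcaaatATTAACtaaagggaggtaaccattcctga
Fgg (chr3:83007474-83007723, plus strand): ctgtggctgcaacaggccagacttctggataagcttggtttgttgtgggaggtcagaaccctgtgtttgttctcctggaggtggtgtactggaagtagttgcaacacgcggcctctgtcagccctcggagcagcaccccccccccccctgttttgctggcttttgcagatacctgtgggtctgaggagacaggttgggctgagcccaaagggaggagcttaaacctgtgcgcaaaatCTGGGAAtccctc
F7 (chr8:13025784-13026033, plus strand): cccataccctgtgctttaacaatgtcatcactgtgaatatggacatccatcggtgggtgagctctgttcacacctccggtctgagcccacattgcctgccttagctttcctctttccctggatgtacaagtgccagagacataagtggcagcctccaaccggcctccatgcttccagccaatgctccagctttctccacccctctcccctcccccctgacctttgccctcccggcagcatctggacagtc
F11 (chr8:45262032-45262281, minus strand): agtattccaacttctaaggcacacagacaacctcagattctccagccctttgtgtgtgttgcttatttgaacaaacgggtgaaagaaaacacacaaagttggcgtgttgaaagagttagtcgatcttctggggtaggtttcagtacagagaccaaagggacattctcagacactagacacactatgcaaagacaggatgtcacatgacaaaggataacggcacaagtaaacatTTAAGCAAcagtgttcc

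Counted from the transcript start, the Fgb window held CTGGGAA at -91, a C/EBP match at -80 and the HNF1 half-site at -29. The Fga window held a C/EBP match at -135 and the HNF1 half-site at -43, Fgg held CTGGGAA at -13, and F11 held a C/EBP match at -17. None of the 4 motifs matched in the F7 window, which says only that these letters are not in these 250 bases. Over all 10 coagulation genes, CTGGGAA was found in 3 promoters (F9, Fgb and Fgg), the HNF1 half-site in 2 (Fga and Fgb), the HNF4 motif in 1 (F9) and the C/EBP motif in 4 (F9, F11, Fga and Fgb). Among all 32851 promoters of the same length the shares were 9.1%, 6.43%, 1.19% and 9.56%. A match is a description of the letters and was not tested as a binding site.

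At 12 weeks of HFD the coagulation genes stood lower than on chow, most of all F11, F7 and Fga. All levels below are scaled log2 levels, which are the log2 processed signal minus the 75th percentile of that array, and differences between them are log2 differences. The 12-week minus chow coefficient was negative for 10 of 10 genes, and for all but F12 after quantile normalization. Its median was -0.57, while 53.9% of all genes tested had a negative coefficient and their median was -0.05. After quantile normalization the median of the 10 genes was -0.34. The 10 genes are bright, at the 76.5th to 99.9th percentile of the mean level of all genes, and the 100 brightest genes had a 12-week median of -0.16. The part of brightness in the coefficients was not tested. Two-sided limma tests with Benjamini-Hochberg adjustment over all genes called 2 of the 10 lower (F7 and Fga), at an adjusted p under 0.05. Of all 15341 genes, 6.09% were called in this comparison and 2.01% were called lower. At an unadjusted p under 0.05 the count was 6 of the 10 genes, against 28% of all genes. Both calls were lost when any 1 of the 8 arrays was left out, as given gene by gene in the next paragraphs.

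**Figure D1:**
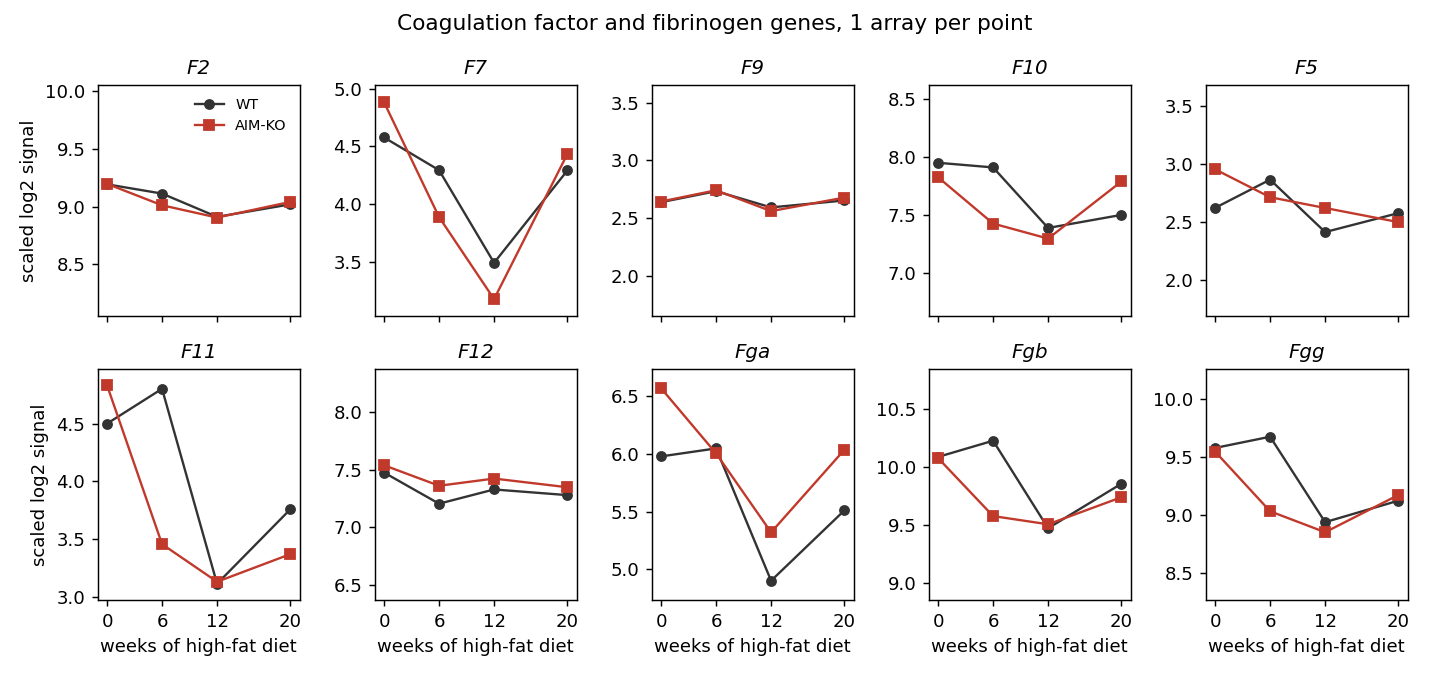
Scaled log2 level (log2 processed signal minus the 75th percentile of the array, vertical axis) of the 10 coagulation genes against weeks of high-fat diet (horizontal axis, 0 is normal chow), with 1 point per array for wild type and AIM knockout. In all genes but F5 and F12 both 12-week arrays lie below the other 6 arrays, though F9 spans only 1.13-fold over all 8.

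F7 encodes the zymogen that starts clotting once bound to tissue factor. Its levels at 0, 6, 12 and 20 weeks were 4.58, 4.30, 3.50 and 4.29 in wild type. In the knockout they were 4.88, 3.89, 3.18 and 4.44. All 6 HFD arrays lay below both chow arrays, and both 12-week arrays lay below the other 6. At 12 weeks F7 stood at 0.472 times its own chow level in wild type and at 0.307 times in the knockout. The coefficient was -1.39 (SE 0.22, limma adjusted p = 0.0421). Leaving out an array or a pair of arrays gave adjusted p-values of 0.0648 to 0.238 and coefficients of -1.64 to -1.14.

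The other 3 vitamin K-dependent genes moved less. F10, whose product forms thrombin from prothrombin, had levels of 7.95, 7.91, 7.39 and 7.50 in wild type at 0, 6, 12 and 20 weeks. Its knockout levels were 7.82, 7.42, 7.29 and 7.79. Both 12-week arrays were the lowest, by a gap of 0.04, and the 12-week coefficient of -0.55 (SE 0.21, adjusted p = 0.174) did not pass. F2, which encodes prothrombin, ranged only 1.22-fold over the 8 arrays. Its levels were 9.19, 9.11, 8.91 and 9.02 in wild type and 9.20, 9.01, 8.91 and 9.04 in the knockout. All 6 HFD arrays of F2 were below both chow arrays, and its 12-week coefficient was -0.29 (SE 0.12, adjusted p = 0.208).

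F9, on the X chromosome, encodes the zymogen lacking in haemophilia B and had the narrowest range of the 10, 1.13-fold. Its levels lay between 2.56 and 2.74, with a 12-week coefficient of -0.06 (SE 0.12, adjusted p = 0.755). The dimmer second F9 probe gave -0.02 in the same comparison. At 20 weeks minus chow the 2 probes differed in sign, 0.03 for the brighter probe and -0.23 for the dimmer one.

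The cofactor F5 had levels of 2.62, 2.87, 2.41 and 2.58 in wild type at 0, 6, 12 and 20 weeks and of 2.95, 2.71, 2.62 and 2.50 in the knockout. Its 12-week arrays overlapped the others. The 12-week coefficient was -0.27 (SE 0.17, adjusted p = 0.357).

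Of the 2 contact pathway genes, F11, which encodes the zymogen that activates factor IX, had the widest range of the 10, 3.28-fold. Its levels in wild type were 4.50, 4.80, 3.12 and 3.76 at 0, 6, 12 and 20 weeks. In the knockout they were 4.83, 3.46, 3.13 and 3.37. Both 12-week arrays were the lowest, while the 6-week arrays stood far apart, with wild type above chow and the knockout below it. The 12-week coefficient was -1.54 (SE 0.41, adjusted p = 0.0921), larger in size than that of F7 but with a larger SE. F12 had levels of 7.47, 7.21, 7.33 and 7.28 in wild type and of 7.54, 7.36, 7.42 and 7.35 in the knockout. All 6 HFD arrays of F12 lay below both chow arrays, but its lowest array was the wild type at 6 weeks. Its 12-week coefficient was -0.13 (SE 0.12, adjusted p = 0.513), and it had the opposite sign, 0.03, after quantile normalization.

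The fibrinogen genes were lowest at 12 weeks in both genotypes. Fga, the alpha chain gene, had levels of 5.98, 6.05, 4.90 and 5.51 in wild type at 0, 6, 12 and 20 weeks. In the knockout its levels were 6.57, 6.00, 5.32 and 6.03. Both 12-week arrays lay below the other 6, by a gap of 0.19. At 12 weeks Fga stood at 0.475 times its chow level in wild type and at 0.422 times in the knockout. The coefficient was -1.16 (SE 0.20, limma adjusted p = 0.0451). Leaving out an array or a pair of arrays gave adjusted p-values of 0.0503 to 0.236 and coefficients of -1.30 to -1.01.

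Fgb, the beta chain gene, had levels of 10.09, 10.23, 9.47 and 9.86 in wild type and of 10.08, 9.58, 9.51 and 9.74 in the knockout. Fgg, the gamma chain gene, had levels of 9.58, 9.68, 8.94 and 9.13 in wild type and of 9.55, 9.03, 8.85 and 9.17 in the knockout. For both genes the 12-week arrays were the lowest 2, and the knockout at 6 weeks was the next lowest. The 12-week coefficients were -0.60 (SE 0.21, adjusted p = 0.15) for Fgb and -0.67 (SE 0.21, adjusted p = 0.12) for Fgg, which did not pass.

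Both 12-week arrays lay below the other 6 for 8 of the 10 genes, all but F5 and F12, against 10.9% of all genes. All 6 HFD arrays lay below both chow arrays for F2, F7 and F12, against 10.6% of all genes. Set against the chow array of the same genotype, 10 of 10 genes were lower at 12 weeks in each genotype, where 53.2% and 53.3% of all genes were lower. At 6 weeks 4 of 10 were lower in wild type and 9 of 10 in the knockout, where 46% and 52.4% of all genes were lower. At 20 weeks 9 of 10 were lower in each genotype, where 54.8% and 50.9% of all genes were lower. The chow array is shared by the comparisons within a genotype, so these counts are not independent of each other.

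Taken over the 6 HFD arrays together, the coefficient against chow was negative for 9 of 10 genes (F2 turned positive after quantile normalization) and 0 passed, where 2.33% of all genes were called. At an unadjusted p under 0.05 the count was 3 genes, against 25.2% of all genes. The coefficients nearest the threshold were F7 at -0.80 (SE 0.18, adjusted p = 0.0848), Fga at -0.63 (SE 0.16, adjusted p = 0.101) and F11 at -1.06 (SE 0.34, adjusted p = 0.145). With the variance trend, or with probes above background on all 8 arrays, F7 passed. Fgg had -0.43, Fgb -0.36 and F10 -0.34, and F2, F12 and F5 lay between -0.19 and -0.17. F9 had 0.02.

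For F7, F11 and Fga the differences at 6 and 20 weeks were smaller than at 12. At 6 weeks minus chow 0 of the 10 genes passed, where 0.00652% of all genes were called, and F7 alone had an unadjusted p under 0.05 (10.8% of all genes did). Its coefficient was -0.64 (SE 0.22, adjusted p = 0.423). F11 had -0.54 and Fga -0.25 at 6 weeks, and without the knockout array at 6 weeks these were 0.13 and 0.03. At 20 weeks minus chow 0 of the 10 passed, where 1.69% of all genes were called, and 1 had an unadjusted p under 0.05 (25% of all genes did). The coefficients were -1.10 (SE 0.41, adjusted p = 0.191) for F11, -0.50 (SE 0.20, adjusted p = 0.202) for Fga and -0.37 (SE 0.22, adjusted p = 0.354) for F7. These values moved most with the chow arrays. Without the wild-type chow array F11 had -1.55 and F7 had -0.61, and without the knockout chow array they had -0.65 and -0.12. Between 20 and 6 weeks 0 passed, where 0.117% of all genes were called, and 0 had an unadjusted p under 0.05.

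**Figure D2:**
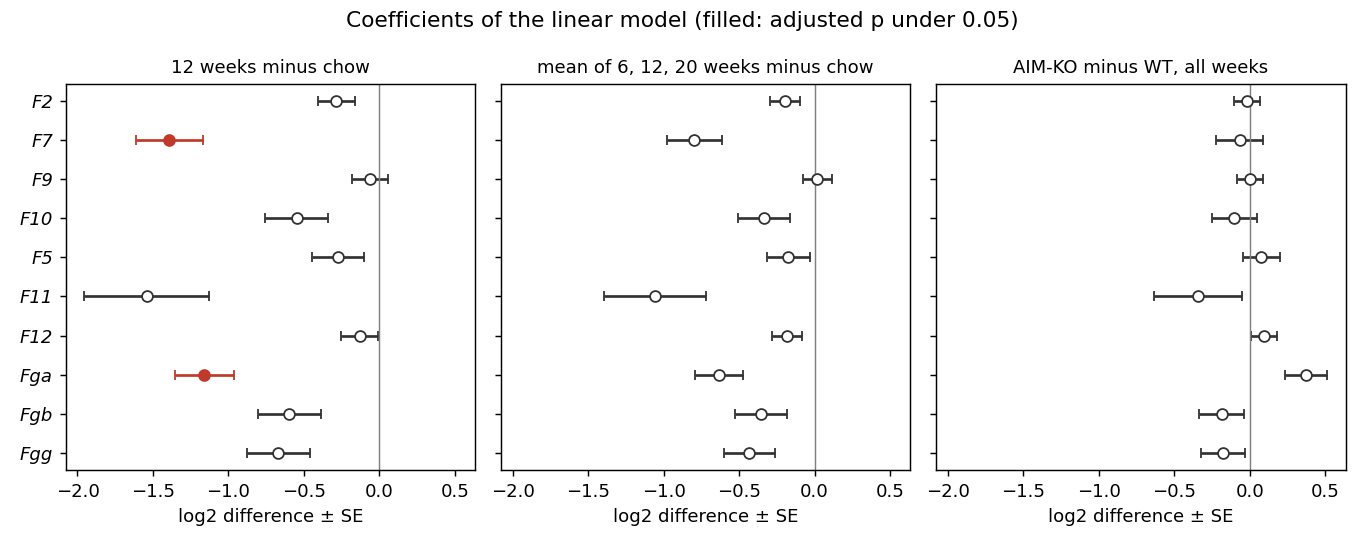
Limma coefficients (log2, horizontal axis) with their standard errors as bars for the 10 coagulation genes in 3 comparisons, with filled points for an adjusted p under 0.05. The 12-week coefficients run from -1.54 for F11 to -0.06 for F9, all below 0 (F12 not so after quantile normalization), while the genotype coefficients lie on both sides of 0.

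No coagulation gene passed the test between knockout and wild type. By the knockout minus wild type coefficient 0 of the 10 passed, where 0.0326% of all genes were called, and 6 coefficients were negative and 4 positive. Fga had the largest, 0.37 (SE 0.14), with an unadjusted limma p of 0.0433 and an adjusted p of 0.869, and 5.59% of all genes had an unadjusted p under 0.05. The coefficients were -0.35 (SE 0.29) for F11, -0.19 (SE 0.15) for Fgb, -0.18 (SE 0.15) for Fgg and 0.10 (SE 0.09) for F12. Without the 6-week pair, or either array of it, F11, Fgb and Fgg had -0.01, -0.03 and -0.02 and Fga had 0.51. The other 5 genes lay between -0.10 and 0.08, and the sign of each changed in 3 to 8 of 20 alternative settings. The difference between genotypes on HFD minus that on chow was fitted with all weeks of HFD pooled and 1 chow array per genotype. Changes between weeks of HFD therefore counted as spread. The coefficients ran from -0.90 (F11) to 0.04 (F12). The SEs of the 10 genes were 0.23 (F12) to 0.85 (F11), against 0.08 (F9) to 0.29 (F11) for knockout minus wild type. A lack of calls in this fit therefore does not show that the genotypes responded alike to HFD. No gene of all those tested (0%) was called there, 4.43% of them had an unadjusted p under 0.05, and none of the 10 did.

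Week by week, with 1 array against 1 and therefore no test, F11 at 6 weeks was the only one of the 10 genes that was 2-fold or more apart. Its signal was 3315 in the knockout and 6521 in wild type, a scaled log2 difference of -1.34. Among all genes the share 2-fold or more apart was 7.84% at 0 weeks, 7.04% at 6, 4.9% at 12 and 4.28% at 20. At 6 weeks 8 of the 10 genes were lower in the knockout, against 55.6% of all genes, and the differences were -0.65 for Fgb, -0.64 for Fgg, -0.49 for F10 and -0.40 for F7. At 0, 12 and 20 weeks 3, 5 and 3 of the 10 were lower in the knockout. On the same 6-week arrays 15 of 16 hepatocyte markers were lower in the knockout (median -0.33), as were 18 of 25 acute phase genes (median -0.49). All 10 Kupffer cell genes were lower in the knockout (median -0.41), as were 4 of 5 neutrophil genes. These 2 lists were lower at other weeks too. At 0, 12 and 20 weeks the counts were 3, 6 and 10 for Kupffer cell genes and 4, 3 and 5 for neutrophil genes. At 6 weeks 0 of 10 endothelial genes and 1 of 9 stellate cell genes were lower in the knockout (medians of 0.25 and 0.30). The same held for 1 of 6 platelet genes and 1 of 12 immediate early genes (medians of 0.48 and 0.68). The summed hepatocyte marker signal at 6 weeks was 8860 in the knockout against 11080 in wild type. The part of these differences in the 6-week values of the coagulation genes was not tested. In whole liver, fewer hepatocytes and less of an RNA per hepatocyte cannot be told apart.

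**Figure D3:**
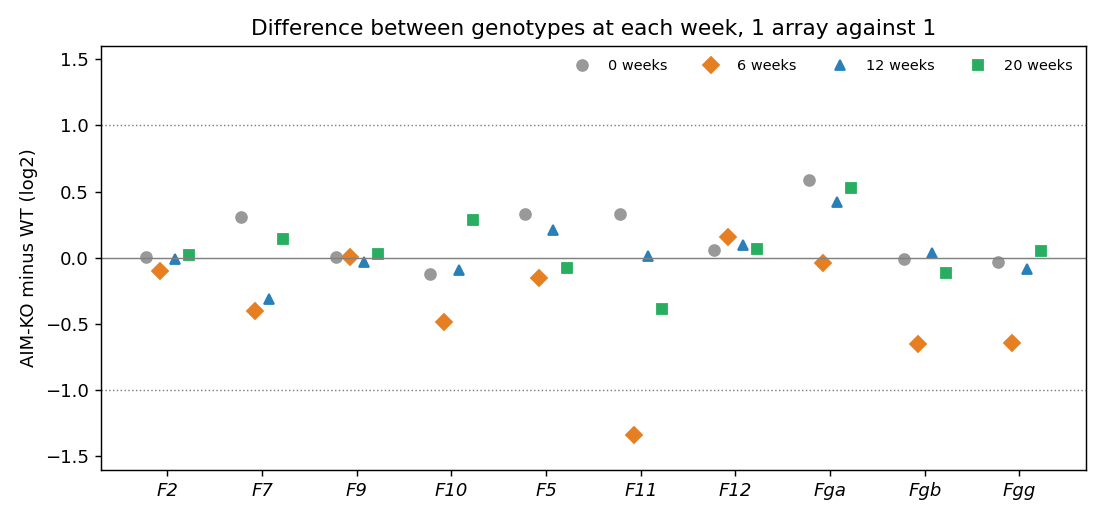
Knockout minus wild type difference in scaled log2 level (vertical axis) of each coagulation gene (horizontal axis) at 0, 6, 12 and 20 weeks (symbols), 1 array against 1 at each week, with dotted lines at 2-fold. F11 at 6 weeks reaches -1.34, and Fga lies above 0 at 0, 12 and 20 weeks.

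Among the fibrinogen genes, Fga was higher in the knockout at 3 of 4 weeks. The knockout minus wild type difference of Fga was 0.59, -0.04, 0.42 and 0.52 at 0, 6, 12 and 20 weeks, where Fgb had -0.01, -0.65, 0.03 and -0.12. Relative to the mean of Fgb and Fgg on the same array, Fga was higher in the knockout by 0.608, 0.604, 0.445 and 0.558, a mean of 0.554 ± 0.0761 (SD, n = 4 weeks). An exact two-sided sign-flip permutation test gave p = 0.125, the smallest that this test can give over 4 weeks, so the test cannot reach 0.05 here. This contrast was chosen after its values were seen. Genotype and slide cannot be told apart for it either.

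The 3 fibrinogen genes lie on the chromosome that carries Cd5l, which is the gene deleted in the knockout. On mm8, the build of the array files, the probes are at chr3:83100830-83100889 for Fgg, chr3:83117683-83117742 for Fga and chr3:83128339-83128398 for Fgb, 4.33 to 4.36 Mb from the Cd5l probe. The nearest measured genes before the cluster had knockout minus wild type coefficients of 0.08 (Lrat), -1.03 (AK039154, SE 0.80) and 0.04 (Gucy1a1). After the cluster they were 0.26 for Plrg1 (SE 0.10, adjusted p = 0.876), 0.62 for Tlr2 (SE 0.22, adjusted p = 0.847) and 0.19 for D930015E06Rik, and none of the 6 passed. Asic5, outside that rule and named after its values were seen, lies 5.36 Mb from Cd5l and had 3.29 (adjusted p = 0.0111). The remaining probes are on mm8 at chr2:91426267-91426326 (F2), chr8:13035264-13035323 (F7), chrX:56376501-56376560 (the brighter F9 probe), chr8:13055751-13055810 (F10), chr1:166046272-166048460 (F5), chr8:46740216-46740275 (F11) and chr13:55427717-55427776 (F12). Exon and UTR annotation on mm8 was not used here.

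The other genes of haemostasis lay on both sides of 0 at 12 weeks. Of 10 further clotting and contact system genes, 1 fell and 0 rose, and their median coefficient was -0.08. Over the 9 of them well above background on both chow and both 12-week arrays the median was -0.20, with 4 positive. Klkb1, which encodes the plasma prekallikrein that activates factor XII, fell by 1.28 (SE 0.18, limma adjusted p = 0.0386). Its signal was 2223 and 3065 on chow (wild type, then knockout) and 1229 and 1030 at 12 weeks. Kng2 and Kng1, which encode kininogens, had -0.89 (adjusted p = 0.0504) and -0.73, and Vwf, made by endothelium and platelets, had 1.59 (adjusted p = 0.0627). F13a1, the transglutaminase chain that crosslinks fibrin and is made by macrophages and platelets, was well above background on the 12-week arrays only, where it was at least 1.53-fold higher than on chow. That bound sets the 12-week mean against the lowest signal marked as above background on the chow arrays.

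Of the 4 vitamin K cycle genes 0 passed in either direction, with a median of 0.06. Ggcx, the gamma-carboxylase itself, had -0.63 (SE 0.13, adjusted p = 0.0615), and Vkorc1, the warfarin-sensitive reductase, had -0.26. Nqo1 had 0.87 and Vkorc1l1 had 0.38. Of these enzymes it is the gamma-carboxylase that acts on the products of F2, F7, F9 and F10.

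Of the anticoagulant genes 12 of 14 were measured, and 1 rose and 0 fell, with a median of -0.34. Procr, the endothelial receptor of protein C, rose by 1.81 (SE 0.25, adjusted p = 0.0382), from signals of 49 and 65 on chow to 183 and 233 at 12 weeks. Thbd, which encodes thrombomodulin, had 1.56, and the plasma protein genes Proz, Pzp and Serpind1 had -0.80, -0.73 and -0.71, none of which passed. Of the fibrinolysis genes 10 of 11 were measured, and 1 rose and 0 fell, with a median of -0.32. Over the 8 well above background on both chow and both 12-week arrays the median was -0.69, with 2 positive. The 10 coagulation genes had a median of -0.57. The gene that rose was Plaur, the urokinase receptor (adjusted p = 0.0472). It was not well above background on either chow array, and at 12 weeks it was at least 5.24-fold higher. Serpinf2, the plasmin inhibitor, had -0.99 (adjusted p = 0.0517) and Habp2 had -0.86. Plat, the tissue plasminogen activator, was not well above background on chow and was at least 1.97-fold higher at 12 weeks.

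Fibrinogen is counted among the acute phase proteins. Of 25 other acute phase genes measured, 3 rose at 12 weeks and 0 fell, with a median of 0.33. Their coefficients were positive for 17 and negative for 8. Lcn2 rose by 4.57 (SE 0.31, adjusted p = 0.0187), Orm3 by 3.57 (SE 0.24, adjusted p = 0.0187) and Saa2 by 2.37 (SE 0.44, adjusted p = 0.0488), while Fga fell by 1.16. Il1rn, well above background on 1 of the 2 chow arrays, had 3.02. Saa1 had 2.14 and Saa3 1.81, and Hamp, the iron hormone hepcidin, had -1.64, none of which passed. Orm3 signal was 178 and 207 on chow and 2090 and 2749 at 12 weeks.

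Of 16 liver-enriched transcription factor genes 0 rose and 1 fell, with a median of -0.14. Onecut1 (HNF6) fell by 1.10 (SE 0.17, adjusted p = 0.0406). Foxa3 had -1.17, Cebpd 0.92, Nr0b2 -0.87 and Hnf4a -0.71, none of which passed. Of 16 hepatocyte markers 15 had negative 12-week coefficients, with a median of -0.21, and 1 fell, Cps1, the first enzyme of the urea cycle, by 2.0 (SE 0.32, adjusted p = 0.042). Tat, a tyrosine-degrading enzyme, had -1.31 (adjusted p = 0.0839). The summed hepatocyte marker signal was 10390 and 9708 on chow and 8771 and 8526 at 12 weeks, so that list was also lower at 12 weeks. At 20 weeks minus chow its median was -0.30, with 15 of 16 coefficients negative. The median of the 10 coagulation genes was -0.57 at 12 weeks and -0.27 at 20. The part of this list in the values of the coagulation genes was not tested.

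Several marker lists of other liver cells had positive medians at 12 weeks. The median coefficient was 0.45 for 10 Kupffer cell genes, of which C1qb rose by 0.94 (adjusted p = 0.0451). Of these Kupffer cell coefficients 6 were positive and 4 negative, among them Timd4 (-0.79) and Marco (-0.56). For 10 endothelial genes the median was 0.40, with 8 positive, 2 negative and 0 called. For 9 stellate cell and fibroblast genes the median was 0.55, and Lrat (0.84) and Col3a1 (2.58) rose. The summed Kupffer cell signal was 73.3 and 79.0 on chow and 110.4 and 101.3 at 12 weeks. In other lists fewer genes were well above background on both chow and both 12-week arrays. Of 7 T, NK and B cell genes measured, 6 were, and their median was 0.49, with 0 called. Of 12 immediate early genes 8 were, with a median of 0.13 and 0 called. Of 5 cholangiocyte genes 2 were, and they went opposite ways. Spp1, which encodes osteopontin, rose by 5.02 (adjusted p = 0.0307), while Sox9 had -0.28, which did not pass. Of 5 neutrophil genes 2 were, S100a8 and S100a9, with 0.65 and 0.94, which did not pass. Of 6 platelet genes 2 were. Pf4 rose by 1.66 (SE 0.15, adjusted p = 0.0219), while Itgb3 had -0.86, and the summed platelet gene signal was 2.85 and 3.59 on chow and 3.20 and 4.33 at 12 weeks. Alas2, of 3 erythroid genes measured, fell by 1.17 (adjusted p = 0.0459). In the sex-biased liver genes 4 of 13 measured fell (Hsd3b5, Cyp4a12a, Slco1a1 and Serpina1e) and 0 rose, with a median of -1.58. In that list 9 coefficients were negative and 4 positive, so its median hides opposite directions. Cyp2b9 had levels of 1.34 and 0.80 on chow (wild type, then knockout) and of 6.02 and 5.72 at 12 weeks. The part of any of these lists in the 12-week values of the coagulation genes was not tested.

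**Figure D4:**
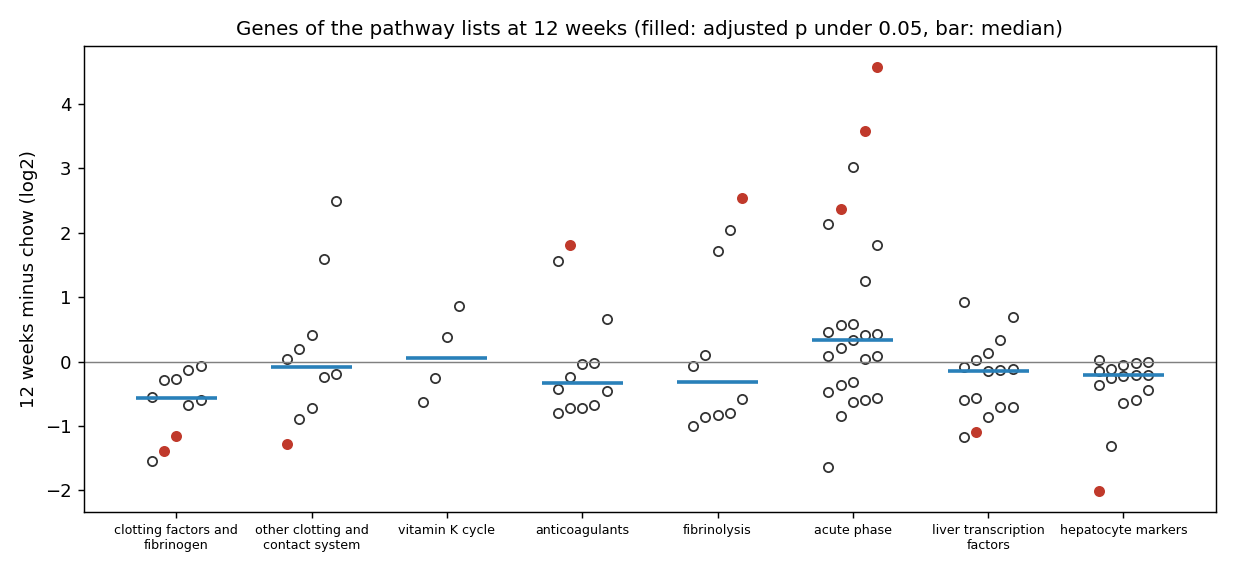
Limma coefficients of 12 weeks minus chow (log2, vertical axis), 1 point per gene, for the coagulation and fibrinogen genes and 7 other gene lists (horizontal axis), with filled points for an adjusted p under 0.05 and a bar at each median. The 10 coagulation genes all lie below 0 (F12 not so after quantile normalization). The acute phase genes lie on both sides of 0, with 17 of 25 positive and 8 negative, and reach 4.57 (Lcn2).

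Some genes followed the members closely over the 8 arrays. Pearson r was computed on scaled log2 levels against 11117 named genes, and it is a description, since the arrays share weeks, slides and scaling. The fibrinogen mean was most like Pdia5 (r = 0.979), Sharpin (0.977), Tmem260 (0.975), Kansl1l (0.974) and Zfp451 (0.974). F7 was most like Asl (0.991), F11 like Plg (0.976), F2 like Sharpin (0.98) and F10 like Ndor1 (0.973). The highest values for F9, F5 and F12 were with Smarcc2 (0.984), Clic5 (0.952) and Gsta1 (0.934). Among the members themselves, Fgb and Fgg had r = 0.972 over the 8 arrays, F11 had 0.964 with Fgg, and Fga had 0.69 with Fgb and 0.725 with Fgg. F12 had 0.0168 with Fgb, and F9 had -0.433 with F12.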

How the data were processed

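Liver RNA of 8 groups was measured on 8 one-colour Agilent arrays. The processed signal intensity deposited by the authors was background-subtracted by Feature Extraction 9.5.3.1, per the file headers (9.5 in the submitters' processing notes). The authors' deposited log2 value table equals the log2 processed signal minus a 75th percentile, within 0.001 of each column's median difference for 99.5% to 99.7% of probes. It was used as an alternative. Column medians were -3.6 to -3.42.

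From the processed intensity, 1639 control spots and outlier spots were left out, replicate spots were averaged, and each array's 75th percentile was subtracted after log2. Probes well above background on at least 2 arrays were kept, the brightest probe stood for a gene, and 24375 probes were named through RefSeq (16799 kept the file's name). Limma 3.58.1 in R 4.3.3 fitted week (4 levels) plus genotype, with 3 residual degrees of freedom, or 4 cells for the interaction, with Benjamini-Hochberg adjustment over all genes at 0.05. The tests were tested on simulated data. The precision is limited by 1 array per group.

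The members and the 19 gene lists were chosen with earlier results of these data known. Of each pathway list the text names the genes past the threshold and up to 4 others with the largest coefficients, except 1 gene that is not reported here, and of the cell type marker lists the genes past the threshold at 12 weeks. Other marker genes were named after their values were seen. Of the neighbours on chromosome 3 it names the 3 nearest measured genes on each side, and of the genes with a like pattern the 5 with the highest r for the fibrinogen mean and 1 for each other gene. Alternatives were other scalings, background correction, filters, probe rules, a variance trend and leaving out arrays.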

Additional observations from a re-analysis of the deposited data

How the results depend on the processing

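The count of coagulation genes called at 12 weeks minus chow was 2 (F7 and Fga). It was 0 with no filter on dim probes, where 75 of 28477 genes were called, and 0 in every fit without a pair of arrays or 1 array (leave-one-out range 0 to 0). In these fits fewer arrays or more genes were tested. F11 joined the calls at 12 weeks with probes above background on all 8 arrays (adjusted p = 0.0485) and with a variance trend (0.0491). The count for HFD minus chow was 0, and 1 (F7) with probes above background on all 8 arrays and with a variance trend. Quantile normalization turned the sign of F2 on HFD (0.0397) and of F12 at 12 weeks (0.0294). F9 on HFD turned to -0.0265 as the mean of its probes, and leaving out arrays gave -0.0194 (without the 6-week pair) to 0.0608. Leaving out arrays moved the 6-week coefficients of F11 from -1.2 to 0.128 and of Fga from -0.524 to 0.0296, the highest in both cases without the knockout at 6 weeks. The cause of these turns was not tested. Relative to Fgb and Fgg, the knockout excess of Fga was 0.467 to 0.59 over 8 alternatives added after its values were seen, the lowest with quantile normalization. Genes called at 12 weeks among all tested numbered 935, and 1470 of 12444 with probes above background on all 8 arrays, 1704 with a variance trend, 266 without the 6-week pair, 205 without the 20-week pair and 0 without either chow or either 12-week array. For HFD minus chow they numbered 358, and 693 with normexp, 232 with quantile normalization, 27 with no filter, 905 with all 8 arrays, 1047 with a variance trend, 519 without the 6-week pair, 119 without the wild type at 6 weeks and 0 without any other single array or without the 12-week or 20-week pair. Over the alternatives the HFD coefficient lay between -1.05 and -0.502 for F7 and between -1.51 and -0.607 for F11. No paired analysis was possible because every label carries replicate number 1, so the numbers pair no samples. Genotypes were compared within weeks by the model itself. The slide as a block was not run, since each slide holds 1 genotype. All 10 genes were well above background on all 8 arrays.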

Other observations

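At 20 weeks of HFD 2 haemostasis genes of vessel wall and platelets rose against chow. Of the 10 coagulation genes 0 passed the test, where 1.69% of all genes were called. Vwf, which encodes von Willebrand factor, had signals of 96 and 142 on chow (wild type, then knockout) and of 919 and 1101 at 20 weeks, and it rose by 2.83 (SE 0.34, limma adjusted p = 0.0382). Pf4, a chemokine stored in platelets, had signals of 146 and 188 on chow and of 443 and 537 at 20 weeks, and it rose by 1.28 (SE 0.15, adjusted p = 0.0382). Procr had 1.18 (SE 0.25, adjusted p = 0.0828) and Thbd 1.52 (SE 0.48, adjusted p = 0.147), which did not pass. Klkb1, which fell at 12 weeks, had -0.65 (SE 0.18, adjusted p = 0.124) at 20 weeks. In the endothelial list, which holds Vwf, 7 coefficients were positive and 3 negative at 20 weeks. The platelet list, which holds Pf4, had 5 positive and 1 negative (Itgb3, -0.39). These counts include genes not well above background on chow. Vwf and Pf4 were chosen after their values were seen, and both 20-week arrays carry Xist signal and no Y-linked signal.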
